A study of Mus musculus with 4 samples.

Results

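Heme is made by a chain of enzymes that begins in the mitochondrion, passes through the cytosol and ends in the mitochondrion again, where iron is placed into the porphyrin ring. 8 genes of this chain were followed here, out of 32285 gene features in the deposited matrices: Alas1, Alas2, Alad, Uros, Urod, Cpox, Ppox and Fech. They were picked by their symbols and for what they encode, not by any measured value, though earlier results of these data were known then. 5-Aminolevulinate synthase makes the first committed intermediate, and exists as a form used in most cells (Alas1) and an erythroid form (Alas2). Alad joins pairs of that intermediate into porphobilinogen, Uros closes the ring, Urod and Cpox trim its side chains, Ppox oxidises it to protoporphyrin and Fech inserts the iron. Red cell precursors make heme mostly for hemoglobin, and granulocyte precursors need it for proteins such as myeloperoxidase.

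The cells were Kit-positive, CD45.2-positive mouse bone marrow cells, collected 10 weeks after transplantation and measured by single-cell RNA sequencing together with barcoded antibodies. There was 1 library for each of 4 groups: Mll3 deleted, Mll4 deleted, both deleted (Mll3/4) and a control. The labels give no strain, no donor or recipient numbers, no Cre driver and no statement of whether cells of several animals were pooled. Mll3 and Mll4 are the histone methyltransferases encoded by Kmt2c and Kmt2d. After filtering, 7146 cells were kept in control, 5860 in the Mll3 library, 5350 in the Mll4 library and 6917 in the Mll3/4 library.

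Depth differed: the kept cells held 153615605, 135986150, 32777830 and 77657652 UMIs (unique molecules counted) in that order, and any pair of libraries shared between 3 and 15 cell barcodes. Kmt2c was at 47.9 CPM (the counts-per-million unit, here of gene UMIs) in control, 27.2 in the Mll3 library and 34.8 in the Mll3/4 library, but Kmt2d was at 25.8 CPM in control, 24.99 in the Mll4 library and 24.7 in the Mll3/4 library. Over all cells the Kmt2d level thus did not set the Mll4-labelled and Mll3/4-labelled libraries apart from control. Within classes Kmt2d was below control in 8 of 8 classes of the Mll4-labelled library, from 19.4 against 19.7 CPM in the erythroid progenitor-like class described next to 16.8 (6 UMIs) against 40.2 CPM in B-cell progenitor-like cells, and in 8 of 8 classes of the Mll3-labelled library as well. B-cell progenitor-like cells of the Mll3/4-labelled library had 24.7 CPM. The labels do not say which part of either gene was deleted, and counts from the 3′ end check nothing where the deleted part lies elsewhere. Each library is therefore named by its label below, as Mll3-labelled and so on. The Mll4-labelled library also had Xist at 0.519 CPM against 989.9 in control, 954.8 in the Mll3-labelled and 1839 in the Mll3/4-labelled library, so the sex of the cells and the deletion cannot be told apart there. With 1 library a group no difference has a replicate check. Each range in parentheses after a level or a ratio is a 95% interval for counting error only, and no test between groups was possible. A count from the 3′ end of transcripts is compared here between cells for the same gene, not between genes.

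Cells were grouped into classes from fixed marker genes after clustering without the 8 genes, and classes carry "-like" because they rest on rebuilt names. The erythroid progenitor-like class held 1589 cells in control, 1587 in the Mll3-labelled, 516 in the Mll4-labelled and 2 in the Mll3/4-labelled library. All 8 of its markers were detected there, with Car1 at 3123 CPM and Klf1 at 195 CPM in control, against 49.0 and 5.72 CPM in the remaining control cells. B-cell progenitor-like cells numbered 471, 369, 143 and 6831 in the same order. The Mll3/4-labelled library was thus made almost wholly of 1 class. In sums over all cells, fewer cells of a class and less RNA per cell cannot be told apart.

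The promoter windows of Cpox and Alas2 are shown as examples. The erythroid class turned out to hold most of the transcripts of both, and words bound by GATA factors lie in them. Neither trait is particular to these genes. That class also held most control UMIs of Alad (79.9%), Uros (74.5%), Urod (72.3%), Ppox (61.5%) and Fech (76.2%), and Uros has such words too. These shares can be read against the 45.5% of all control UMIs that the class held. Windows came from RefSeq on GRCm38.p6, where 7 of the 8 genes matched. The word AGATAA was searched, together with its variants that end in G (AGATAG), that begin with T instead of A (TGATAA), or that have both changes (TGATAG), on both strands over the 250 bases before each start, and capitals mark them. At least 1 such word occurred in 26.5% of all 32851 windows of that length. Cpox is shown from its plus strand at chr16:58669958-58670207 with words 91 and 86 bases before the start, which overlap by 1 base, and Alas2 from its plus strand at chrX:150547167-150547374, the part of its window that lies before the annotated gene, with a word 86 bases before the start.
Cpox: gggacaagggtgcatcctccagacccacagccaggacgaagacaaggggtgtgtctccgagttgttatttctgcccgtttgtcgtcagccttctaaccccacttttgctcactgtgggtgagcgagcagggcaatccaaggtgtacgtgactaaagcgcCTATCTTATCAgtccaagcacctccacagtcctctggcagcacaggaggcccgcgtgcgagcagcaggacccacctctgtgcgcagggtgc
Alas2: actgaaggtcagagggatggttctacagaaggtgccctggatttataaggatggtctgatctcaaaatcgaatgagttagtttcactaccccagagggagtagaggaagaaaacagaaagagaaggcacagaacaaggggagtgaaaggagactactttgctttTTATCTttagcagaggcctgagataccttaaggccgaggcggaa
Uros has 2 listed starts, with 2 words before the downstream one and none before the other. No word was found in the windows of Alas1, Alad, Urod and Ppox. The short word CACCC, searched in the same way, occurred in 52.0% of all windows. It lay 4 times before Cpox and 3 times before Alas2. It also lay 1 time before each listed Alas1 start and before the downstream Alad start, but not before Urod, Uros or Ppox. All 3 Alas2 matches lie 30 to 40 bases before the RefSeq start, inside the annotated gene and outside the stretch shown. A match is a description of the letters only.

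Of the genes of the first step, Alas1 was counted in every class. Alas1 (ENSMUSG00000032786, chromosome 9 from 106233455 to 106248654 on the minus strand, GENCODE M21 on GRCm38, as are all positions below) was at 94.6 CPM over all control cells, 80.4 in the Mll3-labelled, 246 in the Mll4-labelled and 19.7 in the Mll3/4-labelled library. The Mll4-labelled library was the highest and the Mll3/4-labelled library the lowest. Log2 ratios to control, taken on the log2(CPM + 1) scale as all ratios here, were -0.23 (-0.27 to -0.20), 1.37 (1.33 to 1.41) and -2.21 (-2.28 to -2.14). A further 26 control UMIs were counted for 4930500F10Rik, which overlaps the gene on the opposite strand over 465 exon bases.

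Alas1 was higher in granulocyte and monocyte precursors than in red cell precursors in the control, Mll3-labelled and Mll4-labelled libraries. In control it was at 411 CPM (402 to 421) in granulocyte progenitor-like cells, 327 CPM (310 to 345) in monocyte/macrophage progenitor-like cells and 164 CPM (159 to 169) in neutrophil-like cells. It was at 39.6 CPM (29.0 to 52.9) in basophil/mast-like cells, 32.6 CPM (30.1 to 35.2) in HSC/MPP-like cells, the stem and multipotent progenitors, and 26.1 CPM (20.8 to 32.3) in B-cell progenitor-like cells. The lowest of the larger classes were megakaryocyte-like cells at 21.6 CPM (19.3 to 24.1) and erythroid progenitor-like cells at 19.1 CPM (18.1 to 20.1), whose intervals overlap. The 3 highest classes were apart from each other and from the rest, while the ranges of neighbours from the basophil/mast-like class downward overlapped. Of all Alas1 UMIs in control, 47.1% came from granulocyte progenitor-like, 27.0% from neutrophil-like and 9.18% from erythroid progenitor-like cells. In the same order, these classes held 10.8%, 15.6% and 45.5% of all control UMIs. Among cells thinned to 2000 UMIs each, 49.2% of control granulocyte progenitor-like cells and 3.74% of erythroid progenitor-like cells had an Alas1 UMI; unthinned shares were 91.9% and 51.4%, at median depths of 20664 and 47503 UMIs. Cluster 5 of the granulocyte progenitor-like class, led by the granule protease genes Elane, Prtn3 and Ctsg, had Alas1 at 583 CPM in control, and cluster 11 of the same class, led by Prg2 and Cpa3, had 180 CPM.

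**Figure D1:**
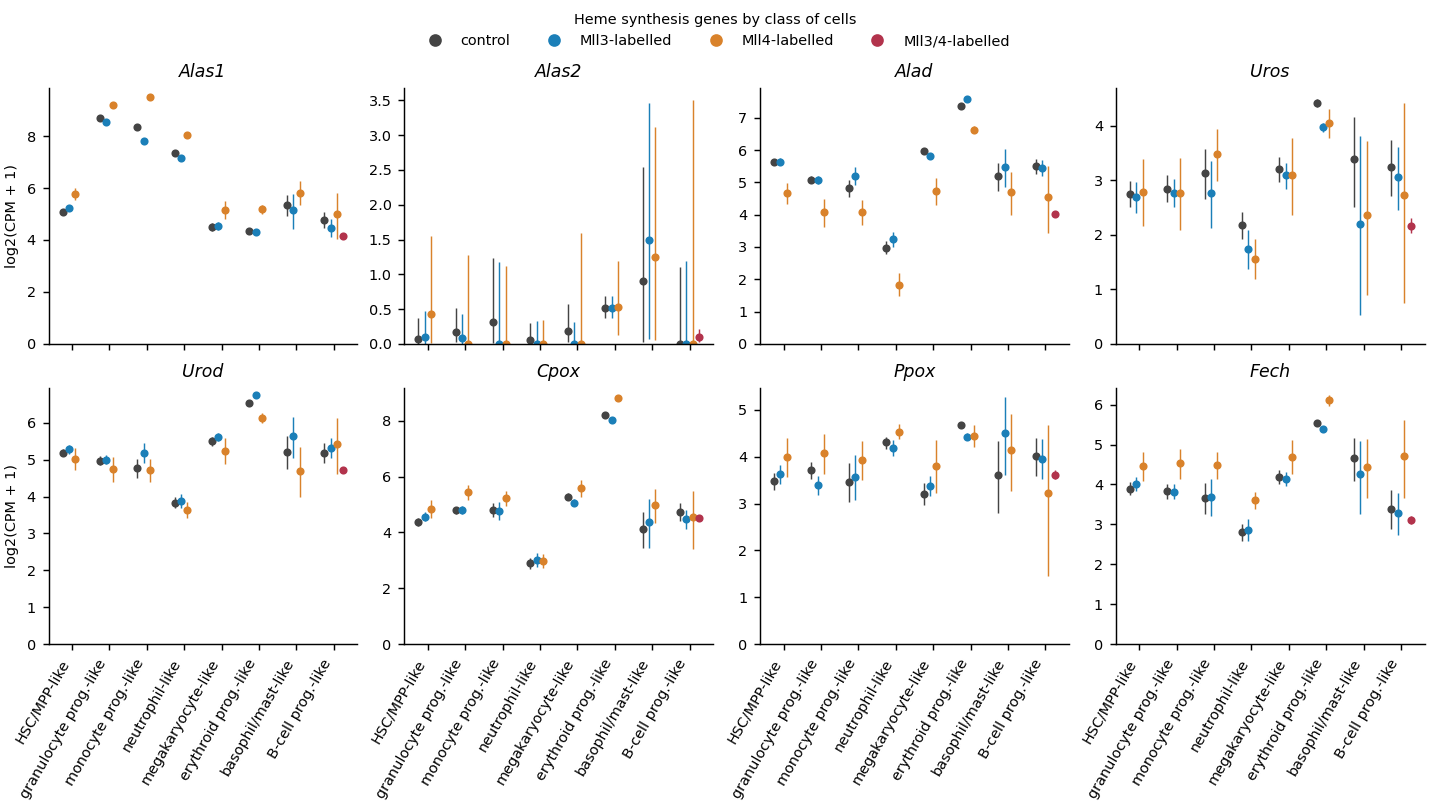
Level of each gene as log2(CPM + 1), by class of cells (x axis) with at least 50 cells, in the 4 libraries (colours); bars are 95% Poisson intervals for counting error. Alas1 stands high in granulocyte, monocyte and neutrophil-like cells, and Alad, Uros, Urod, Cpox and Fech stand highest in erythroid progenitor-like cells.

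In the Mll4-labelled library Alas1 was higher than in control in each of 8 classes, which share that library and are not replicates. The log2 ratios ran from 0.24 in B-cell progenitor-like cells (-0.77 to 1.11, 11 UMIs) to 1.17 in monocyte/macrophage progenitor-like cells, with 6 of 8 intervals above 0. Monocyte/macrophage progenitor-like cells stood at 327 CPM in control, 224 in the Mll3-labelled and 735 in the Mll4-labelled library. Granulocyte progenitor-like cells stood at 411, 373 and 580 CPM, and neutrophil-like cells at 164, 143 and 266 CPM. The Mll4-labelled library was the highest in all 3 of these classes and the Mll3-labelled library the lowest. Neutrophil-like cells came from different clusters in the libraries: 1258 of 1782 control cells lay in cluster 9, led by Chil3, Ngp and Camp, and 1926 of 2687 Mll4-labelled cells in cluster 17, led by Wfdc21, Inhba and Adpgk. Within cluster 10 of the granulocyte progenitor-like class, which held cells of both, Alas1 was at 492 CPM in control and 667 in the Mll4-labelled library. The median of all genes itself lay between 0.06 and 0.21 above control in these classes in that library, and these ratios can be read against that shift.

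Alas2, the erythroid form that supplies most of the intermediate in maturing red cells, was close to the limit of detection. It lies on chromosome X from 150547375 to 150570638 on the plus strand (ENSMUSG00000025270) and shares 311 exon bases with Apex2 on the opposite strand. Over all cells it had 38 UMIs in control, 33 in the Mll3-labelled, 5 in the Mll4-labelled and 6 in the Mll3/4-labelled library, or 0.247, 0.243, 0.153 and 0.0773 CPM. The intervals of the first 3 overlapped. Of the 38 control UMIs, 30 were in erythroid progenitor-like cells, a class with 45.5% of all control UMIs. Alas2 was there at 0.429 CPM (0.290 to 0.613) in control, against 0.433 CPM in the Mll3-labelled and 0.442 CPM (3 UMIs, 0.091 to 1.29) in the Mll4-labelled library. No difference between those 3 was detectable at this depth. B-cell progenitor-like cells had 0 Alas2 UMIs in control, which allows up to 0.943 CPM by a limit of 3 counts, and 5 UMIs among 6831 cells in the Mll3/4-labelled library. The globin genes were low as well, with Hbb-bs at 26.7 CPM and Hba-a1 at 33.8 CPM in control erythroid progenitor-like cells, and Hbb-bs at 9.76 CPM even in control neutrophil-like cells. The cells had been selected for Kit, which red cell precursors lose as they mature.

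Alad and the ring-forming steps were highest in erythroid progenitor-like cells. Alad (ENSMUSG00000028393, chromosome 4 from 62509169 to 62519918, minus strand) was at 93.3 CPM over all control cells, 116 in the Mll3-labelled, 28.6 in the Mll4-labelled and 15.7 in the Mll3/4-labelled library. In control it was at 164 CPM (161 to 167) in erythroid progenitor-like cells, 62.3 (58.4 to 66.5) in megakaryocyte-like, 48.4 (45.4 to 51.6) in HSC/MPP-like and 6.88 (5.87 to 8.02) in neutrophil-like cells. The erythroid class thus held the top and the neutrophil class the bottom of the order, 23.8-fold apart. Of control Alad UMIs 79.9% were erythroid progenitor-like, beside 45.5% of all control UMIs.

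Alad was lower in the Mll4-labelled library than in control in each of the 8 classes, at log2 ratios from -1.25 in megakaryocyte-like to -0.49 in basophil/mast-like cells, with 6 of 8 intervals below 0. In erythroid progenitor-like cells it was at 164 CPM in control, 192 (189 to 195) in the Mll3-labelled and 97.7 (90.5 to 106) in the Mll4-labelled library. These levels did not overlap in their counting intervals, the Mll3-labelled one being the highest. The log2 ratios to control were 0.23 (0.19 to 0.27) and -0.74 (-0.85 to -0.63). Split by the higher of the 2 hashtag antibodies, whose meaning the labels do not give, the levels in this class were 163 and 164 CPM in control, 177 and 214 in the Mll3-labelled, and 101 and 92.1 in the Mll4-labelled library. The Mll4-labelled cells were below control in either hashtag group, and the hashtag groups of the Mll3-labelled library differed from each other by more than its lower group differed from control. In HSC/MPP-like cells Alad was at 48.4, 48.8 and 24.4 CPM in control, Mll3-labelled and Mll4-labelled libraries, so that the lower level was also seen outside the erythroid class.

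Uros (ENSMUSG00000030979, chromosome 7 from 133686243 to 133710072, minus strand), the ring-closing enzyme, was at 12.5, 10.2, 6.71 and 3.49 CPM over all cells in control, Mll3-labelled, Mll4-labelled and Mll3/4-labelled libraries. Erythroid progenitor-like cells had 20.5 CPM (19.5 to 21.6) in control, 14.7 (13.8 to 15.6) in the Mll3-labelled and 15.6 (12.8 to 18.9) in the Mll4-labelled library. Both labelled libraries were below control, and their intervals overlapped each other. The Mll3-labelled level rested on the hashtag group, at 11.3 and 19.5 CPM for the first and the second hashtag, while control had 20.8 and 20.3. Urod (ENSMUSG00000028684, chromosome 4 from 116989965 to 116994413, minus strand), which takes carboxyl groups off the ring, was at 57.3, 70.5, 29.7 and 25.1 CPM over all cells. In the erythroid class Urod was at 91.1 CPM (88.8 to 93.3), 106 (104 to 109) and 69.5 (63.4 to 76.0) in control, Mll3-labelled and Mll4-labelled libraries. Like Alad, it was highest in the Mll3-labelled and lowest in the Mll4-labelled library. By hashtag, Urod in this class was at 89.1 and 92.7 CPM in control and 94.05 and 123.2 in the Mll3-labelled library. It was at 72.6 and 63.3 CPM in the Mll4-labelled library, below both control groups. The Mll3-labelled groups differed from each other by more than the lower of them differed from control, so most of the higher Mll3-labelled level lay in the second hashtag group. In the Mll3-labelled library Urod was above control in 8 of 8 classes by 0.03 to 0.43 (log2), with 2 intervals above 0.

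Cpox and Fech showed the opposite order in the erythroid class. Cpox (ENSMUSG00000022742, chromosome 16 from 58670292 to 58717636, plus strand), the oxidase that makes protoporphyrinogen, was at 147 CPM over all control cells, 143 in the Mll3-labelled, 109 in the Mll4-labelled and 22.3 in the Mll3/4-labelled library. It was also the member most bound to the erythroid class, which held 92.1% of its control UMIs, beside 45.5% of all control UMIs. After thinning to 2000 UMIs, 34.3% of control erythroid progenitor-like cells and 1.20% of neutrophil-like cells had a Cpox UMI, with unthinned shares of 83.8% and 8.19% at median depths of 47503 and 13536.5 UMIs. In erythroid progenitor-like cells Cpox stood at 298 CPM (294 to 302) in control, 258 (254 to 261) in the Mll3-labelled and 450 (434 to 466) in the Mll4-labelled library. That last level was the highest, by a log2 ratio of 0.59 (0.54 to 0.65), and the Mll3-labelled level the lowest, by -0.21 (-0.24 to -0.18). Hashtag groups gave 279 and 314 CPM in control, 250 and 268 in the Mll3-labelled, and 400 and 547 in the Mll4-labelled library. The Mll4-labelled groups lay above all others. The Mll3-labelled groups lay below both control groups, but the gap from 268 to 279 CPM was smaller than that between the control groups. Over all cells, in contrast, Cpox was lower in the Mll4-labelled library than in control (log2 ratio -0.42, -0.47 to -0.37), where erythroid progenitor-like cells made up 9.64% of cells against 22.2% in control.

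Fech (ENSMUSG00000024588, chromosome 18 from 64452914 to 64490251, minus strand), the ferrochelatase of the last step, was at 27.3, 27.3, 26.8 and 7.74 CPM over all cells in control, Mll3-labelled, Mll4-labelled and Mll3/4-labelled libraries. The first 3 libraries were alike within counting error. Within the erythroid class the values were 45.8 CPM (44.2 to 47.4), 41.1 (39.6 to 42.7) and 67.9 (61.8 to 74.3), at log2 ratios of -0.15 (-0.22 to -0.08) and 0.56 (0.42 to 0.70). The Mll4-labelled library was above control in that class and in 6 others, all 7 with intervals above 0, and lower only in basophil/mast-like cells (-0.21, -1.15 to 0.69). Neutrophil-like cells, for example, had 5.97 CPM in control, 6.28 in the Mll3-labelled and 11.1 in the Mll4-labelled library. Hashtag groups of the Mll3-labelled erythroid class had 36.3 and 47.9 CPM, on both sides of the 46.9 and 44.9 of control, and no difference from control holds there beyond the spread between hashtags. The Mll4-labelled groups had 64.2 and 75.1 CPM, above both.

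Ppox (ENSMUSG00000062729, chromosome 1 from 171275990 to 171281186, minus strand), which makes protoporphyrin, varied least between classes. It was at 18.2, 16.4, 19.1 and 11.2 CPM over all cells in the 4 libraries in the same order. In control it was at 24.6 CPM (23.5 to 25.8) in erythroid progenitor-like, 18.8 (17.1 to 20.6) in neutrophil-like and 8.25 (6.86 to 9.84) in megakaryocyte-like cells. Neutrophil-like cells, the lowest of the 8 classes for Alad, Cpox, Fech, Urod and Uros, were thus the second highest for Ppox. The gene shares 791 exon bases with B4galt3 on the opposite strand, and B4galt3 was at 29.2 CPM in control neutrophil-like and 10.96 in erythroid progenitor-like cells. Whether the counting used strand is not given in the sources used here, so the split of reads between Ppox and B4galt3 is uncertain. Cpox likewise shares 204 exon bases with Gpr15, which had only 5 UMIs in all control cells.

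**Figure D2:**
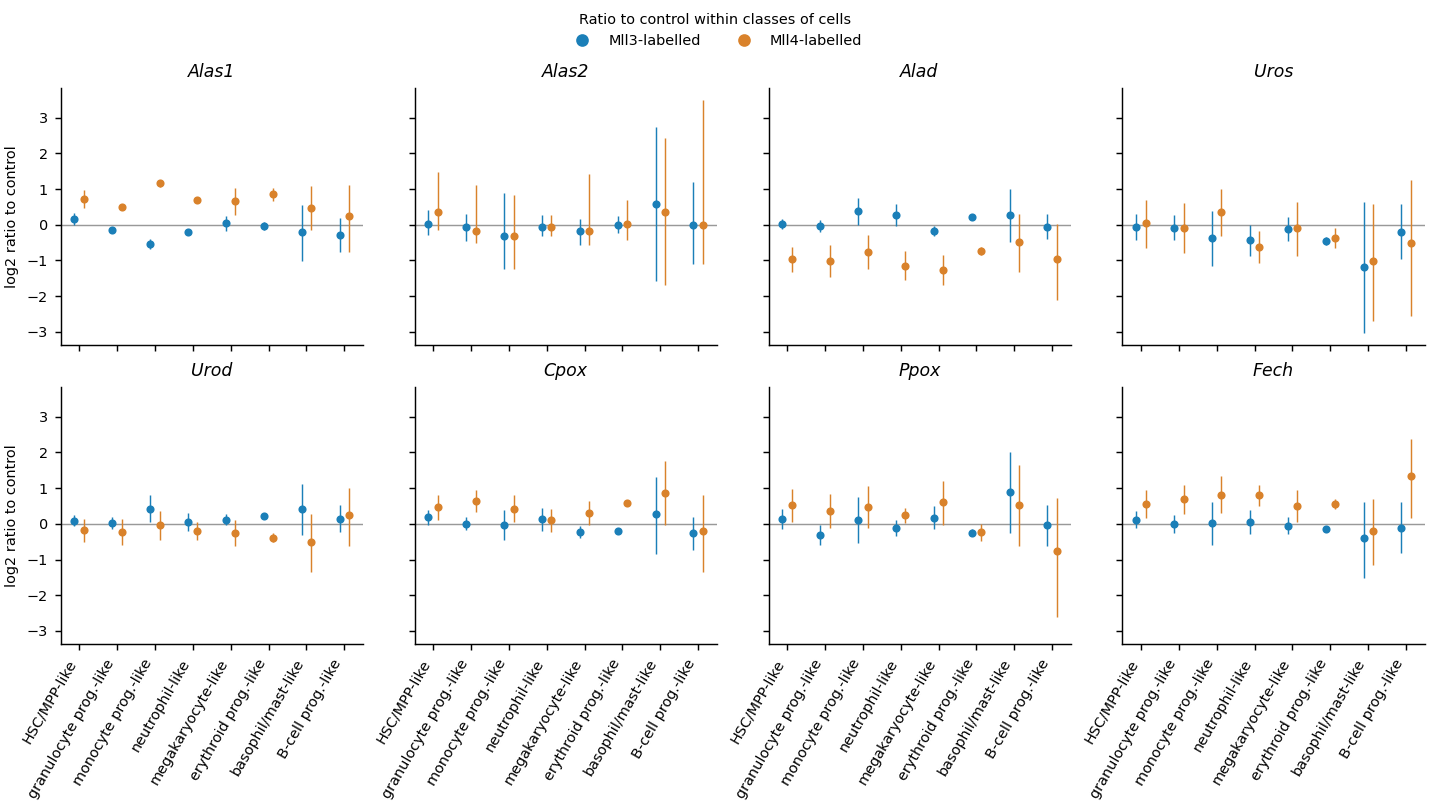
Log2 ratio of each gene to control within 8 classes of cells (x axis), for the Mll3-labelled and Mll4-labelled libraries, on the log2(CPM + 1) scale; bars are 95% intervals for counting error. Alad lies below 0 and Alas1 above 0 in all 8 classes of the Mll4-labelled library.

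Seen together in the erythroid progenitor-like class, the chain moved apart in the Mll4-labelled library: Alas1, Cpox and Fech were higher than in control, and Alad, Uros and Urod lower. The median log2 ratio of the 8 genes was -0.11 (-0.45 to 0.35) there, beside 0.18 for all 11972 genes with at least 20 UMIs in either library, and none of the 8 genes differed by 2-fold or more in either direction, as 4.73% of those genes did. The 2 middle genes of that median were Ppox and Alas2, and Alas2 was near the limit of detection, at 0.442 CPM in the Mll4-labelled cells. In the Mll3-labelled library the median was -0.09 (-0.18 to -0.0012) beside -0.05 for all genes, again with 0 of 8 past 2-fold (0.717% of all genes). Alas2, at 0.429 CPM in control cells of this class, could not be lower by 2-fold on the log2(CPM + 1) scale. The 2 comparisons share the control library, and only each library's own values are set side by side. The directions for Alas1, Cpox, Fech, Alad, Uros and Urod in the Mll4-labelled library were the same under all 11 alternatives computed for each, with Alas1 between 0.57 and 0.99, Cpox between 0.30 and 0.80, Fech between 0.27 and 0.79 and Alad between -1.02 and -0.69. With trimmed-mean scaling, which moved all log2 ratios in that class down by 0.29, these directions stayed.

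Within the erythroid class the levels went with the erythroid markers. 3 clusters formed the class. Cluster 8 was led by Apoe and Csrp3 and had none of the 8 erythroid markers among its 10 leading genes, cluster 6 was led by Ass1, Trib2 and Car1, and cluster 7 by C1qtnf12, Rhd and Ermap. The 8 genes took no part in the clustering, but genes that vary with them did, so the cluster levels are descriptions. In control, from cluster 8 to 6 to 7, Cpox went from 77.6 to 202 to 371 CPM, Fech from 19.6 to 29.2 to 56.1, Alad from 104 to 141 to 182 and Uros from 9.13 to 10.1 to 26.0. Urod was at 64.3, 68.4 and 103 CPM and Ppox at 14.4, 16.2 and 29.2 CPM. Alas1 stayed level at 19.5, 20.98 and 18.4 CPM, and 29 of 30 Alas2 UMIs of the class lay in cluster 7. Each gene but Alas1 was therefore highest in cluster 7, and the step was largest for Cpox.

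Within cluster 7 alone, which held 778 control, 875 Mll3-labelled and 239 Mll4-labelled cells, the Mll4-labelled library kept the pattern of the whole class. Cpox was at 371, 311 and 566 CPM in control, Mll3-labelled and Mll4-labelled libraries, and Fech at 56.1, 48.0 and 85.0 CPM. Alad was at 182, 214 and 110 CPM, and Alas1 at 18.4, 18.2 and 35.9 CPM. Cpox, Fech and Alas1 were highest, and Alad lowest, in the Mll4-labelled cells of this cluster. In cluster 8 Cpox was at 77.6, 59.6 and 109 CPM and Alad at 104, 111 and 52.9 CPM, so both differences were also seen there. Fech in cluster 6, at 29.2 CPM in control and 28.9 in the Mll4-labelled library, was an exception (log2 ratio -0.01, -0.60 to 0.53). Uros was below control in cluster 7 only, at 17.8 against 26.0 CPM, and was at 10.7 against 10.1 CPM in cluster 6 and 10.0 against 9.13 CPM in cluster 8, with intervals of the ratio that include 0.

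**Figure D3:**
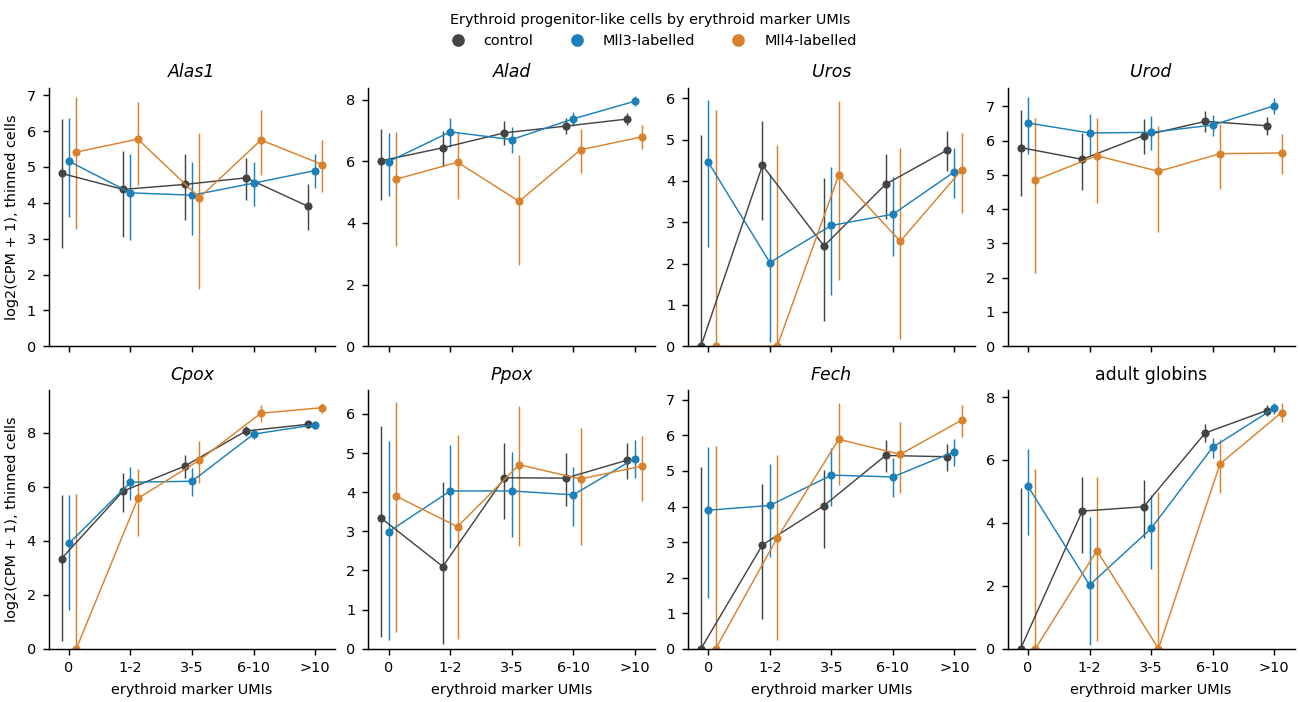
Level as log2(CPM + 1) in erythroid progenitor-like cells thinned to 2000 UMIs, by the summed UMIs of 8 erythroid marker genes per cell (x axis), for 3 libraries; bars are 95% Poisson intervals. Cpox is higher in cells with more markers in every library, and Alas1 is not.

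An order of single cells by the summed UMIs of the 8 erythroid markers, after thinning to 2000 UMIs, gave levels without clusters. In control Cpox was at 9.09 CPM in the 55 cells with 0 marker UMIs, 107 CPM in the 229 cells with 3 to 5 and 314 CPM in the 679 cells with more than 10. Fech was at 0, 15.3 and 41.2 CPM in the same cells, and the adult globin genes at 0, 21.8 and 189 CPM. Fech did not rise further over the last step, at 42.3 CPM in the 461 cells with 6 to 10 marker UMIs, and the 0 for Fech in 55 thinned cells has an upper Poisson bound of 33.5 CPM. Alas1 was at 27.3 CPM (3 UMIs), 21.8 and 14.0 CPM. Cells with more than 10 marker UMIs had Cpox at 314 CPM (285 to 346) in control, 312 in the Mll3-labelled and 484 in the Mll4-labelled library, and Alad at 164 (143 to 187), 245 and 110 CPM. That group has no upper limit, so marker UMIs within it are not matched between libraries. Cells with 6 to 10 marker UMIs had Cpox at 266 CPM (233 to 301), 244 and 418 (335 to 516), and Alad at 140 (117 to 166), 165 and 81.7 (47.6 to 131). In both groups of cells the Mll4-labelled library was the highest for Cpox and the lowest for Alad, although the Alad intervals of control and the Mll4-labelled library overlap in the second. Alas1 in cells with more than 10 marker UMIs was at 14.0 CPM (8.42 to 21.8) in control, 28.8 (20.2 to 39.9) in the Mll3-labelled and 32.5 (18.6 to 52.8) in the Mll4-labelled library, so that here, unlike in cluster 7, the Mll3-labelled level was near the Mll4-labelled one.

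Surface antibodies measured on the same cells gave a readout apart from the transcripts. Control erythroid progenitor-like cells were split by CD48 antibody count into 3 groups of 530, 530 and 529 cells. Fech was at 61.2 CPM in the group with the least CD48, 41.0 in the middle and 30.5 in the group with the most, and Cpox at 389, 276 and 202 CPM. The groups did not have equal depth, at medians of 56828.5, 37499.5 and 37505 UMIs. By CD117, the Kit protein used to select the cells, Uros was at 30.9, 19.1 and 13.8 CPM from low to high, and 22 of the 30 Alas2 UMIs were in the low group. Alas1 was at 18.6, 19.4 and 19.4 CPM over the CD48 groups. CD48 and CD117 are examples out of 13 surface antibodies, and the others are not described here. In these examples cells with less CD48 had more Cpox and Fech, and cells with less CD117 had more Uros. Alas1 was again level over the CD48 groups. The same held for Fech and CD48 in the Mll3-labelled library (53.7, 37.9 and 28.3 CPM) and the Mll4-labelled library (94.9, 55.8 and 45.1 CPM).

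**Figure D4:**
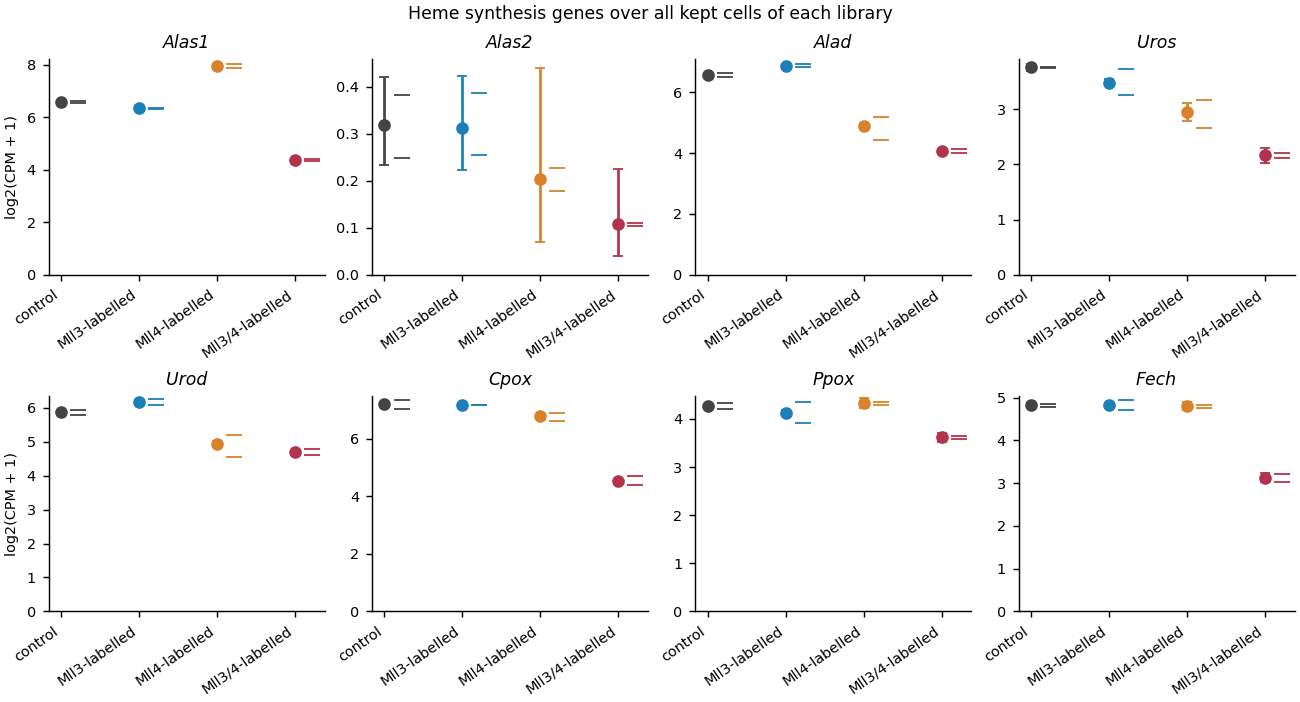
Level of each gene over all kept cells as log2(CPM + 1), by library (x axis). Points with bars are levels with 95% Poisson intervals, and the dashes beside them are the cells of each hashtag; all 8 genes are lower in the Mll3/4-labelled library than in control.

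Over all cells the Mll3/4-labelled library was below control for each of the 8 genes, and 6 of 8 were lower by 2-fold or more, where 11.7% of 15158 genes were. The median log2 ratio was -1.64 (-1.77 to -1.51), beside -0.01 for all genes. Cpox was the furthest below, at -2.67 (-2.74 to -2.60), followed by Alad at -2.50, Alas1 at -2.21, Fech at -1.70, Uros at -1.59 and Urod at -1.16. Ppox was at -0.65 (-0.75 to -0.55) and Alas2 at -0.21, from 6 UMIs. On the log2(CPM + 1) scale a gene below 1 CPM in control cannot be lower by 2-fold. Alas2, at 0.247 CPM over all control cells, could therefore not be counted as lower in any library. The erythroid and granulocyte progenitor-like classes, where control levels were highest, held 2 and 11 cells of the Mll3/4-labelled library. Of the 8 genes in the Mll4-labelled library, 1 was above 2-fold (Alas1) and 1 below (Alad), at background shares of 5.74% and 2.91%, and the median was -0.27. The 2 middle genes of that median were Cpox and Alas2, the latter from 5 UMIs in that library. In the Mll3-labelled library none of the 8 was past 2-fold in either direction (0.667% of genes), and the ratios ran from -0.28 for Uros to 0.31 for Alad.

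The makeup of the libraries entered these sums directly. When the class levels of the Mll4-labelled library were weighted by the class shares of control UMIs over the 8 classes common to both, the log2 ratio of Alas1 went from 1.38 to 0.67 and that of Alad from -1.66 to -0.80. Cpox went from -0.41 to 0.58 and Fech from -0.02 to 0.58. The weighted values are averages of the class levels already given and add no separate support. Alas1 and Alad, each with 1 direction in all 8 classes, could only keep it. Cpox, higher in 7 of the 8 classes and lower in 1, turned from lower to higher. Neutrophil-like cells, low in Cpox and Fech, made up 50.2% of Mll4-labelled cells against 24.9% in control. For the Mll3-labelled library the weighting changed the ratios less, with Alad from 0.31 to 0.18 and Cpox from -0.04 to -0.19. No such weighting could be made for the Mll3/4-labelled library, which had at least 50 cells in the B-cell progenitor-like class only.

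B-cell progenitor-like cells were the class in which all 4 libraries could be compared. They came from different clusters, control cells from clusters 0 and 16 led by Vpreb1 and Vpreb3, and Mll3/4-labelled cells from clusters 21, 22, 23 and 25, led by Cd79a with Gria2, Rnase12 or Bfsp2. All 8 B-cell progenitor markers were detected on both sides, with Cd79a at 1802 CPM in control cells against 2998 in the Mll3/4-labelled library. Median depth was 4389 UMIs in control. Alad was at 44.3 CPM (37.3 to 52.3) in control, 42.7 (35.5 to 51.0) in the Mll3-labelled, 22.5 (9.70 to 44.3) in the Mll4-labelled and 15.3 (14.4 to 16.2) in the Mll3/4-labelled library. This last library was the lowest, apart from control and the Mll3-labelled library but inside the interval of the Mll4-labelled one, which rests on 8 UMIs. The log2 ratio to control was -1.48 (-1.72 to -1.22). Uros followed, at 8.49, 7.29, 5.61 and 3.48 CPM and a ratio of -1.08 (-1.59 to -0.54). Alas1 was at 26.1, 21.2, 30.9 and 16.6 CPM, and Urod at 35.5, 39.2, 42.1 and 25.2 CPM. Both had the lowest level in the Mll3/4-labelled library, with ratios of -0.62 (-0.93 to -0.30) and -0.48 (-0.75 to -0.20), within 2-fold. After thinning to 2000 UMIs the Alas1 ratio was 0.0010 (-0.69 to 0.77), so that difference was not detectable at matched depth. Thinned in the same way, Uros was at -0.53 (-1.67 to 0.75) and Urod at -0.29 (-0.82 to 0.27), both with intervals that include 0, while Alad was at -1.51 (-2.01 to -0.98).

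**Figure D5:**
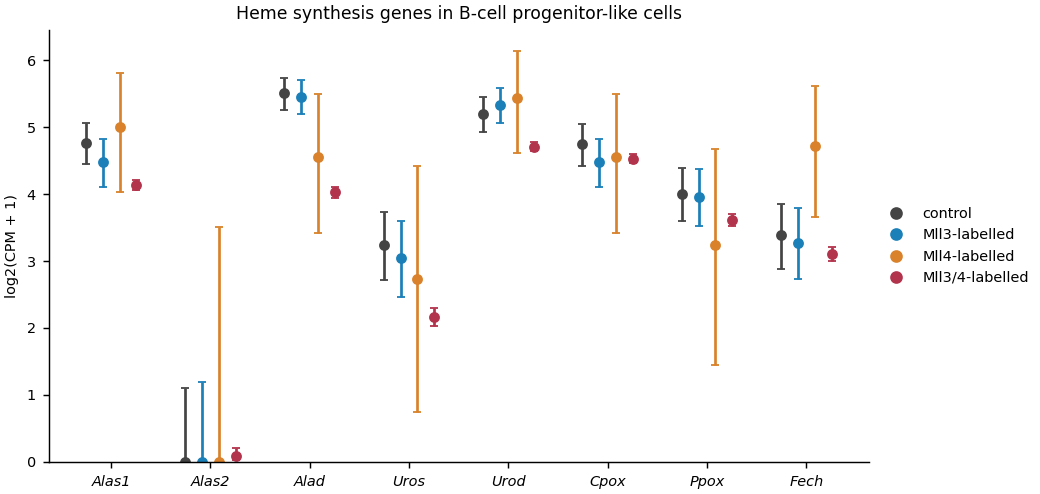
Level of each gene as log2(CPM + 1) in B-cell progenitor-like cells, by gene (x axis) and library (colours), with 95% Poisson intervals for counting error. The Mll3/4-labelled points lie below control for 7 of the 8 genes, furthest for Alad and Uros, and Alas2 is at or near 0 throughout.

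The last steps were closer to control in these cells. Cpox was at 25.8, 21.2, 22.5 and 22.1 CPM, Ppox at 15.1, 14.6, 8.42 and 11.3 CPM and Fech at 9.43, 8.68, 25.3 and 7.59 CPM in control, Mll3-labelled, Mll4-labelled and Mll3/4-labelled libraries. None of the 3 had an interval for the Mll3/4-labelled ratio to control that excluded 0. Fech in the Mll4-labelled cells was the highest, from 9 UMIs (11.5 to 48.0 CPM). Over the 8 genes the median log2 ratio was -0.43 (-0.77 to -0.09), beside 0.02 for all 13459 genes, and 2 of 8 were lower by 2-fold or more, against 7.4% of genes. Alas2, at 0 CPM in control cells of this class, could not be lower. Among the 4 clusters of Mll3/4-labelled cells Alad ran from 9.85 CPM in cluster 21 through 12.6 and 18.5 to 21.1 CPM in cluster 25, all below the control level. The hashtag groups of that library had 16.0 and 14.5 CPM.

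Genes that serve heme synthesis from outside the chain were read from lists on globins, iron and regulators. In the Mll3/4-labelled library, over all cells and against the same background of 11.7% lower by 2-fold, 4 of 4 measured globin genes were lower (median log2 ratio -3.42), as were 6 of 8 genes of iron uptake and delivery, 5 of 10 regulators, 3 of 6 of heme breakdown and export, 2 of 3 of iron storage and release, 2 of 7 of enzyme assembly and iron-sulfur clusters and 2 of 6 of substrate transport. Examples are Tfr2, the second transferrin receptor, at 33.8 CPM in control against 0.348 in the Mll3/4-labelled library, and Klf1 and Gata1, erythroid transcription factors, at 92.0 and 49.3 CPM against 0.464 and 0.270. The erythroid progenitor-like class held 2 cells of that library, so these ratios, too, cannot be told apart from its makeup. In B-cell progenitor-like cells 3 of 7 measured genes of iron uptake and delivery were lower by 2-fold or more, against 7.4% of all genes: Steap3, the endosomal iron reductase, at 17.6 and 5.81 CPM, Slc11a2, the iron transporter of that step, at 21.4 and 8.37 CPM, and Slc25a37, the mitochondrial iron importer, at 41.2 and 18.5 CPM in control and the Mll3/4-labelled library. Blvrb, a biliverdin reductase, was at 71.3 and 30.7 CPM, Slc48a1, a heme transporter, at 23.3 and 9.59 CPM, and Fth1, a ferritin subunit, at 1444 and 594.5 CPM. Of the regulators Zfpm1, the GATA cofactor, was at 123 and 4.39 CPM, and Nfe2, an erythroid and megakaryocyte transcription factor, had a log2 ratio of -2.88. Only Hmox1, heme oxygenase, and Slc6a9, a glycine transporter, passed 2-fold upward, as 9.45% of all genes did, from 2 and 0 control UMIs.

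In erythroid progenitor-like cells of the Mll4-labelled library few list genes were past 2-fold. Abcb6, a porphyrin transporter, was higher at 43.7 CPM against 15.6 in control, a log2 ratio of 1.43 (1.25 to 1.61), where 4.14% of genes were higher by 2-fold. The alpha globin genes Hba-a1 and Hba-a2 were lower, at 14.9 and 5.30 CPM against 33.8 and 17.7, where 0.585% of genes were lower. The beta globin Hbb-bs was higher, at 35.6 CPM against 26.7, so of 4 measured globin genes 3 were lower and 1 higher. Medians were 0.49 for 8 genes of iron uptake and delivery and 0.22 for 10 regulators, beside 0.18 for all genes. Of the iron uptake genes 6 of 8 had a ratio above 0, and none was past 2-fold. Over all cells of that library the genes past 2-fold upward were Ncoa4, a ferritin receptor (195 CPM against 72.3), and the iron exporter Slc40a1 (60.8 against 28.9). They were 1 of 8 genes of iron uptake and delivery and 1 of 3 of iron storage, where 5.74% of all genes were higher. Those past 2-fold downward included Hba-a1, Hba-a2, Tmem14c, Glrx5, Blvrb, Zfpm1 and Fth1, where 2.91% of all genes were lower. By list they were 2 of 4 globins, 2 of 7 of enzyme assembly, 1 of 6 of substrate transport and 1 of 6 of heme breakdown. Regulators added 1 of 10 and iron storage 1 of 3. These ratios, too, cannot be told apart from the makeup of that library. In erythroid progenitor-like cells of the Mll3-labelled library 1 list gene was past 2-fold, the beta globin Hbb-bt at 17.6 CPM against 64.2, where 0.519% of genes were lower. Of 4 measured globin genes 3 were lower there and 1 higher, Hba-a1 at 49.1 CPM against 33.8.

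Likeness between genes was measured as Pearson's r of log2(CPM + 1) over 27 class-by-library sums, which share libraries, depth and classes and are not independent. Among the 8 genes, Alad and Urod were most alike (r = 0.91), then Cpox and Fech (r = 0.84), and Alas1 ran against Alad (r = -0.49). Among 11591 other genes, those most like Alas1 were Plod3 (r = 0.93), Mgam, Igsf6, Agps and Tor1a (the last at 0.91). The gene most like Cpox was Ubac1 (r = 0.97), most like Alad was Pbdc1 (r = 0.95), most like Urod Hsp90aa1 (r = 0.93), most like Fech E2f4 (r = 0.92), most like Uros Abt1 (r = 0.90) and most like Ppox Rabgef1 (r = 0.75). For Alas2 the 5 leading genes were AI427809, Il1rl1, Hs6st2, Slc45a3 and Ndst2, but its sums held at most 2 UMIs outside the erythroid and Mll3/4-labelled B-cell progenitor-like units, and that order carries no weight.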

How the data were processed

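The authors deposited UMI counts per gene and antibody for each cell barcode, 1 matrix per library, from a 10x Genomics 3′ kit; the submitters' processing notes name Cell Ranger 6.1.2 and mm10, and whether counting used strand is not given in the sources used here. Barcodes with at least 500 genes, at least 1000 UMIs and at most 10% mitochondrial UMIs were kept. Doublets were scored with Scrublet in scanpy 1.11.5 and removed at 0.8% per 1000 barcodes, which took 5.29% to 8.01% of barcodes. Counts were scaled to 10000 per cell and logged, and 2000 variable genes without Xist, Y-linked, mitochondrial and the 8 genes gave 30 principal components, 15 neighbours and Leiden clusters at resolution 1.

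Clusters were named from 8 markers for each of 12 classes, by the highest mean standardised level among classes with at least 3 markers in at least 10% of cells. A cluster stayed unnamed where another class led its 10 leading genes. After the data were seen, clusters led by MHC class II genes were also left unnamed.

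CPM was computed from the deposited counts as the summed count in the counts-per-million unit of gene UMIs, with exact Poisson intervals at 95%. Ratios used log2(CPM + 1), with intervals made from those bounds by the square-and-add method in place of the conditional binomial interval first planned. The interval of a median comes from the bounds of the 2 middle genes. Shares used cells thinned to 2000 UMIs, with shallower cells left out. A gene counted as past 2-fold at a log2 ratio of 1 or more, among genes with at least 20 counts in either library. The code was checked on simulated data. Numpy 2.4.6, scipy 1.17.1, pandas 2.3.3 and igraph 0.11.9 were used.

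The 8 genes and the lists were chosen with earlier results of these data known. List genes were named where past 2-fold, at most 5 per list by control counts. For Alas1 and Alas2 the 5 most alike genes were named, and for each other member 1, among genes with at least 500 counts.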

Additional observations from a re-analysis of the deposited data

Results flagged for a closer look

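Some ratios to control had opposite signs in the Mll3-labelled and Mll4-labelled libraries, each with a counting interval on its own side of 0. The difference itself was not tested, since each group has 1 library, and both ratios share the control library. Over all cells, Alas1 was at -0.23 in the Mll3-labelled and 1.37 in the Mll4-labelled library on the log2 scale, Alad at 0.31 and -1.67, and Urod at 0.29 and -0.92. Within erythroid progenitor-like cells, Alad was at 0.23 and -0.74, Urod at 0.22 and -0.39, Cpox at -0.21 and 0.59, and Fech at -0.15 and 0.56. The Mll3-labelled Fech ratio was 0.093 among cells with the second hashtag higher. The Mll3-labelled Urod ratio in this class was 0.076 at its lowest among the alternatives computed.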

How the results depend on the processing

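Of 62 alternative values for the 6 medians of the log2 ratios of the 8 genes, 52 stayed within the counting interval, 8 moved beyond it and 2 had the opposite sign where the interval excluded 0. Of the alternative values for single genes, 349 stayed, 117 moved and 8 had the opposite sign where the interval excluded 0. Where the interval held 0, a further 5 values for medians and 29 for single genes had the opposite sign and are counted among those that stayed or moved, such as Fech over all cells (up to 0.13 in the Mll3-labelled and 0.28 in the Mll4-labelled library). Thinning to 2000 UMIs gave a median of 0.15 in the Mll3-labelled library over all cells, -1.04 in the Mll3/4-labelled library and 0.16 in Mll3-labelled erythroid progenitor-like cells, where the sign changed. In the Mll4-labelled library over all cells the median was -0.42 with genes of at least 100 counts, -0.077 with the first hashtag higher and -0.46 with the second. In the Mll3/4-labelled library a pseudocount of 5 CPM gave -1.20 and a mean over cells of the UMI share -1.04. With the second hashtag higher, the erythroid median was 0.070 in the Mll3-labelled library, a change of sign, and -0.56 in the Mll4-labelled library. For single genes over all cells whose interval excluded 0, the sign changed for Cpox in the Mll3-labelled library with a mean over cells (0.13), thinning (0.17) and the first hashtag (0.12), for Ppox there with the second hashtag (0.030), and for Alas2 in the Mll3/4-labelled library with thinning (0.29). It changed with the second hashtag for Ppox (0.057) and Fech (0.093) in Mll3-labelled erythroid progenitor-like cells, and with thinning for Alas1 in Mll3/4-labelled B-cell progenitor-like cells (0.0010). The cause was not tested. Weighting the erythroid clusters as in control, an alternative chosen after seeing the data, gave -0.11 and -0.14 in the Mll3-labelled and Mll4-labelled libraries. No paired analysis was possible because each group has 1 library. Depth limits Alas2 in every class and all 8 genes in the Mll4-labelled B-cell progenitor-like cells.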
